A study of Mus musculus with 18 samples.

Results

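The genes described here are 7 secreted proteins of the acute-phase response and the complement system, namely Saa3, Lcn2, Hp, Orm1, Serpina3n, C3 and Cfb. They were taken from the gene table by their symbols, are 7 of 54347 listed genes, and all 7 were among the 14949 genes that passed the filter on low counts. They were measured by polyA RNA-seq in differentiated wt1-SAM brown adipocytes, in which the long non-coding RNA Gm15551 was targeted with locked nucleic acid gapmers (LNAs). With each library compared within its own replicate number, Saa3, Lcn2 and Serpina3n were higher with LNA1 than with the control LNA, Hp and C3 were lower after isoproterenol, and Serpina3n was higher after isoproterenol. None of these differences passed in the edgeR model that left the replicate number out.

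The acute-phase response is the change in plasma proteins that follows infection or injury. Its main source is the liver, where interleukin 6 acting through STAT3, interleukin 1 and tumour necrosis factor acting through NF-κB, the C/EBP factors and glucocorticoids raise the transcription of these genes. Adipocytes make several of them too. Saa3 is the serum amyloid A form made mainly outside the liver and travels with lipoproteins, Lcn2 (lipocalin 2) binds iron-loaded siderophores, Hp (haptoglobin) binds free haemoglobin and Orm1 (orosomucoid 1) carries lipophilic ligands. Serpina3n inhibits serine proteases. C3 is the central component of complement, whose cleavage starts opsonisation and the lytic pathway, and Cfb (factor B) supplies the protease of the alternative pathway convertase, after cleavage by factor D, which is the adipocyte product adipsin (Cfd).

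The wt1-SAM line consists of immortalised preadipocytes from mouse brown fat, equipped with SAM, a CRISPR-based system for gene activation. In all groups, differentiation was started with a mixture that held rosiglitazone, T3, dexamethasone, insulin, indomethacine and IBMX, so every library comes from cells that had been exposed to a glucocorticoid. Cells were reverse transfected on day 4 with ctrlA (non-targeting), LNA1 or LNA2 (both against Gm15551), received 0 or 1 µM isoproterenol for the last 24 h, and were harvested on day 7. Isoproterenol stimulates β-adrenergic receptors, the route by which noradrenaline switches on thermogenesis. The 6 groups had 3 libraries each, numbered 2, 3 and 4. The LNAs are shown because they define the groups. They are written as DNA bases, 5′ to 3′, in lower case throughout.

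ctrlA: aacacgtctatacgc

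LNA1: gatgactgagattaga

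LNA2: aagtagcacggcgttg

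LNA1 and LNA2 were complementary over their full 16 bases to Gm15551, and the longest run of ctrlA was 4 bases. Against the transcripts of the 7 genes, the longest complementary runs were 5 to 10 bases. The runs of 10 bases were those of LNA1 with Lcn2 and with Cfb, and a run at least as long with LNA1 was found in 1.69% of 55450 genes.

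Library totals ranged from 9167560 to 19723021 counts. Gm15551 had only 93 counts over all libraries. Of these, 42 were in ctrlA, 24 in LNA1 and 27 in LNA2 libraries. The median level was 0.574 CPM (counts after bringing all libraries to the same size) in ctrlA cells, 0.279 in LNA1 cells and 0.296 in LNA2 cells, and the ranges of 0.129 to 0.794, 0.0794 to 1.02 and 0.0700 to 1.07 overlapped. The lower medians go the way of the labels, but the counts are too few to check the knockdown. Ucp1, the uncoupling protein of brown fat, was at 0.621 to 1.57 CPM in unstimulated and at 9.40 to 16.5 CPM in stimulated libraries. The adipocyte marker Fabp4 reached 7081 to 20719 CPM, while the brown marker Dio2 had 19 counts in all. The 6 libraries numbered 2 stood apart. In them 2.88 to 14.3% of counts fell on the ribosomal RNA gene CT010467.1 and 7.86 to 9.79% on mitochondrial transcripts, against 0.285 to 1.04% and 2.56 to 4.97% in the other 12.

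These genes are also known from immune cells and liver, and the markers of those cells were therefore summed. Of 8 macrophage markers all were detected, with sums of 8.57 to 45.0 CPM over the libraries. Most of that was Cd68, a lysosomal protein, at 7.83 to 42.4 CPM, whereas the defining macrophage gene Adgre1 had 4 counts and the leukocyte gene Ptprc 12 counts in all 18 libraries. Of 6 neutrophil markers 4 were detected, with sums of 0.306 to 3.13 CPM, and S100a9 and Ly6g were at 0. The 6 hepatocyte markers were all detected, with sums of 0.707 to 5.79 CPM, mostly from Apoa1 (380 counts) and Cyp2e1 (153 counts), while Alb had 8 counts and Ttr 1.

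The 7 genes spanned a wide range of levels. Per kilobase of the principal transcript, Lcn2 was the most abundant with a median of 263.0 CPM per kb (168.0 to 609.7 over the 18 libraries), followed by Orm1 with 143.9 CPM per kb (102.2 to 388.5) and C3 with 45.2 CPM per kb (15.4 to 80.8). Hp (median 16.0 CPM per kb) and Serpina3n (12.8 CPM per kb) were lower, and Saa3 (3.86 CPM per kb) and Cfb (1.63 CPM per kb) were the lowest. Of the other serum amyloid A genes, Saa1 had 20, Saa2 17 and Saa4 34 counts over all libraries. Some of these levels are uncertain because sequence is shared with other genes. Of the 31-base words of the transcript, 81.9% in Cfb were also in the readthrough gene Gm20547, 27.5% in Orm1 were in its paralogues Orm2 and Orm3 or in Gm11212, 21.6% in Serpina3n were in other Serpina3 genes and 5.71% in Saa3 were in Saa1 and Saa2. In Hp the share was 0.304%, and in Lcn2 and C3 it was 0%. Gm20547 itself was given 16 counts, all in LNA1 libraries, of which 13 fell in a single unstimulated library and 3 in a single stimulated one.

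The replicate number separated the members more than the LNAs or isoproterenol did on average. In the model with a term for the replicate number, Serpina3n was 3.16-fold, Saa3 2.69-fold, Orm1 2.63-fold, Lcn2 2.22-fold and Hp 2.01-fold higher in the libraries numbered 2 than in those numbered 3 and 4. The 2 complement genes went the other way, with C3 at 0.392 and Cfb at 0.698 of the level in the other libraries. Each of the 7 kept its direction in all 6 groups, and all 7 passed an adjusted p of 0.05 and a log2 difference of 0.5 (5 higher and 2 lower, edgeR quasi-likelihood test, adjusted p between 1.03e-12 and 0.00186). The same limits called 21.1% of all genes higher and 22.1% lower in the libraries numbered 2, so differences of this kind were common. What the number stands for (a culture, a day or a preparation) is not stated. Marker sums, with ranges that overlapped, differed with the number too. In the libraries numbered 2 against the others, they were 18039.8 to 27982 against 13406 to 19984 CPM for adipocytes, 2.56 to 5.79 against 0.707 to 3.15 CPM for hepatocytes and 1.65 to 3.13 against 0.306 to 1.964 CPM for neutrophils. The sums were 27.3 to 75.7 against 16.5 to 55.2 CPM for preadipocytes, 350.2 to 513 against 255 to 547 CPM for brown adipocytes and 8.57 to 28.1 against 9.60 to 45.0 CPM for macrophages. The part of these sums and of the higher share of ribosomal RNA in the differences was not tested.

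**Figure D1:**
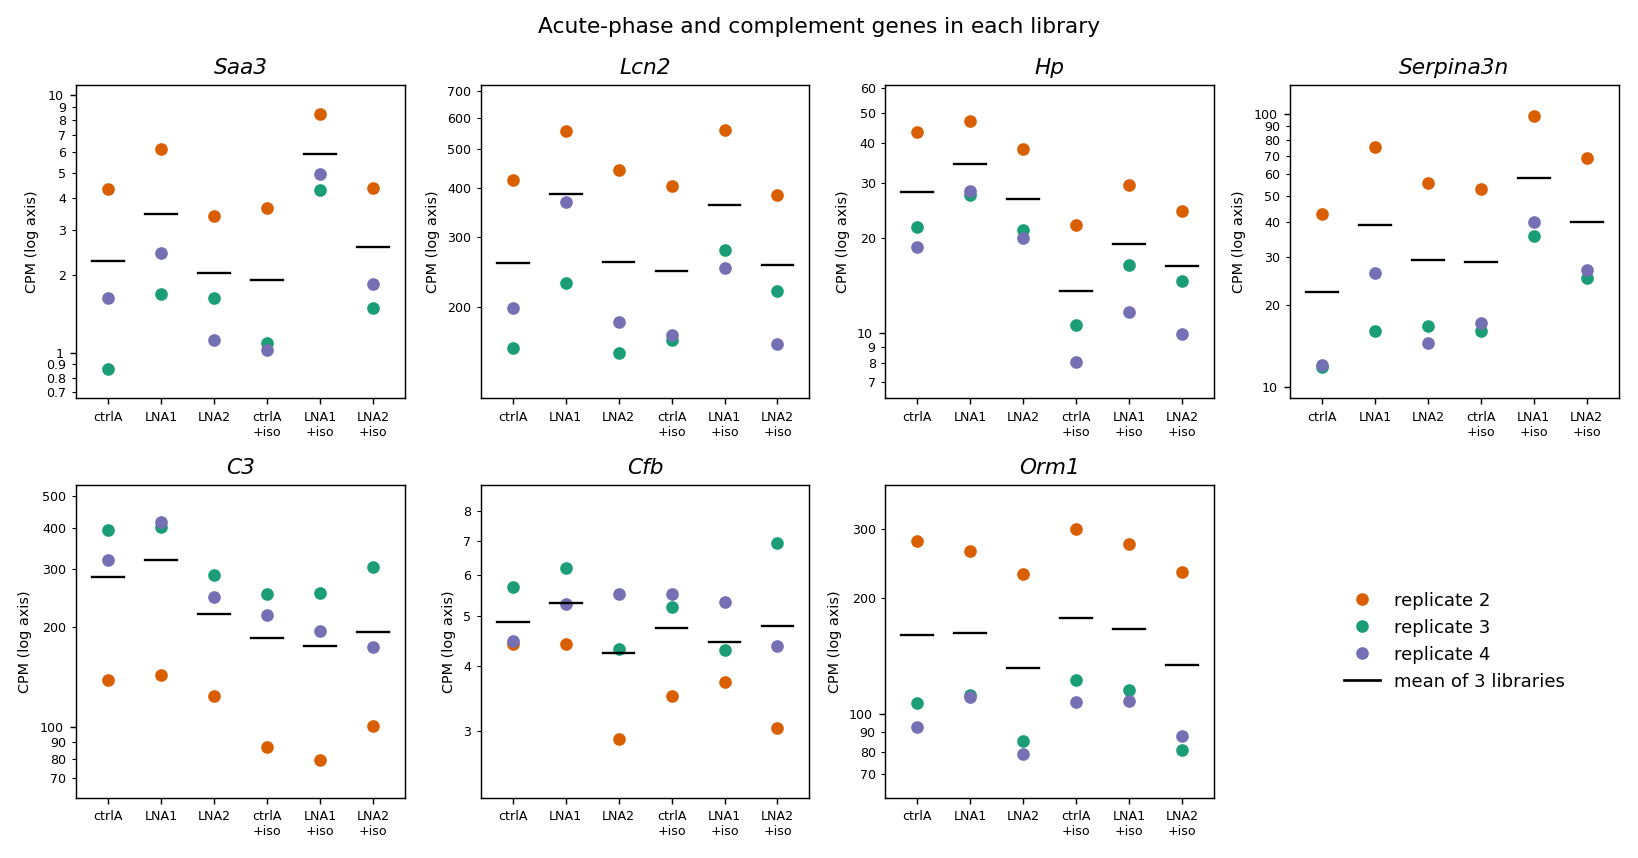
Level of each of the 7 genes in CPM (log axis) in every library, by group (+iso: 1 µM isoproterenol for 24 h), with the replicate number as colour and the mean of the 3 libraries of a group as a black line. Within each group the library numbered 2 lies above the others for Saa3, Lcn2, Hp, Serpina3n and Orm1 and below them for C3 and Cfb.

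The groups overlapped for every member. When the 6 groups were ordered by their mean, all 5 neighbouring pairs in the order had overlapping ranges for each of the 7 genes. In a joint test of the 6 groups without the replicate number, 0 of 7 members passed an adjusted p of 0.001 (edgeR; 0.455% of all genes did), and 0 had an unadjusted p below 0.05. Libraries of the same number deviated from their group means together, so the comparisons below also give the model with the replicate number as a block. There, 5 of 7 members passed the joint test, where 8.93% of all genes did. They were Hp (adjusted p = 2.15e-06), Serpina3n (8.80e-06), C3 (0.000133), Saa3 (0.000263) and Orm1 (0.000590), while Lcn2 (0.00352) and Cfb (0.749) did not. With 1 library left out the count was 3 to 6, with all libraries numbered 2, 3 or 4 left out it was 0, 3 and 1.

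**Figure D2:**
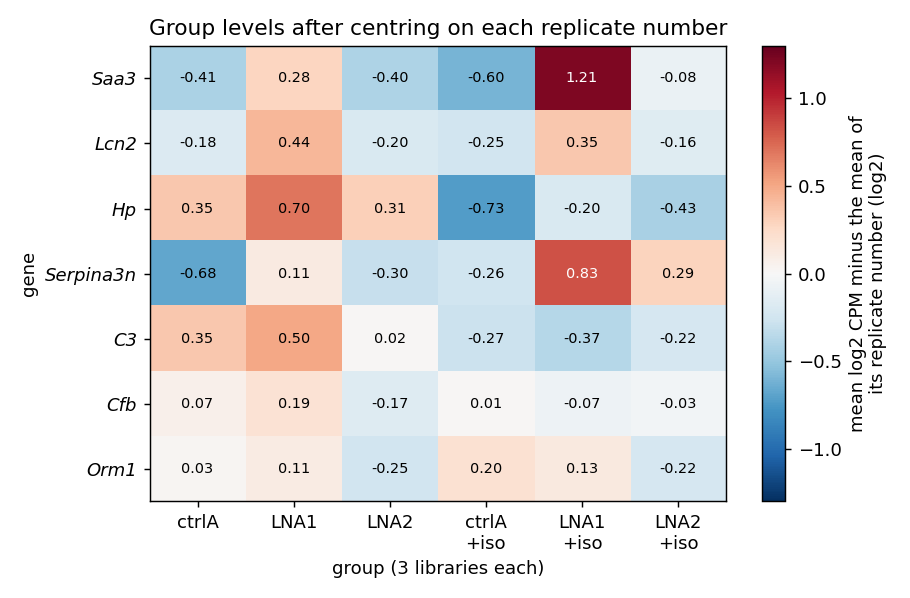
Mean log2 CPM of each gene in each group after subtraction of the mean of its replicate number (colour and printed value, 3 libraries per group). Saa3, Lcn2 and Serpina3n have their highest values with LNA1, Hp and C3 are lower in the stimulated groups, and Cfb stays near 0 in all groups.

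The first comparison asks how the members differ between cells given LNA1 and cells given the control LNA. Saa3, Serpina3n and Lcn2 were higher with LNA1, by 2.28-fold, 1.92-fold and 1.53-fold in the blocked model. Hp was higher by less, and C3, Cfb and Orm1 were not separated from ctrlA. The members were compared over both states of stimulation, 6 libraries against 6.

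Saa3 was at 4.31, 0.866 and 1.63 CPM in the unstimulated ctrlA libraries 2, 3 and 4 and at 6.20, 1.69 and 2.44 CPM in the LNA1 libraries of the same numbers. After isoproterenol the values were 3.65, 1.09 and 1.02 CPM with ctrlA and 8.43, 4.29 and 4.93 CPM with LNA1. Within each number and state the LNA1 library was the higher one (6 of 6 pairs, 1.44-fold to 4.82-fold), and the stimulated LNA1 library was the highest of the 6 for each of the 3 numbers. These levels rest on few reads, as the counts behind them were 10 to 95 per library. The log2 difference was 1.09 ± 0.48 (SE) without the block (edgeR, adjusted p = 0.76) and 1.19 ± 0.18 with it (adjusted p = 0.000957).

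Serpina3n was at 43.0, 11.8 and 12.0 CPM in unstimulated ctrlA libraries 2, 3 and 4 and at 75.5, 16.1 and 26.1 CPM with LNA1. In stimulated cells it was at 53.1, 16.1 and 17.2 CPM with ctrlA and at 98.1, 35.8 and 40.0 CPM with LNA1. LNA1 was higher in 6 of 6 pairs, by 1.36-fold to 2.33-fold, although the groups overlapped across the numbers. The log2 difference was 0.91 ± 0.53 without the block (edgeR, adjusted p = 1.0) and 0.94 ± 0.10 with it (adjusted p = 3.96e-05).

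Lcn2 was at 419, 158 and 199 CPM in unstimulated ctrlA libraries 2, 3 and 4 and at 556, 229.6 and 368 CPM with LNA1. In stimulated cells it was at 405, 166 and 170.0 CPM with ctrlA and at 558, 278 and 252 CPM with LNA1. All 6 pairs were higher with LNA1, by 1.33-fold to 1.85-fold. The log2 difference was 0.56 ± 0.38 without the block (edgeR, adjusted p = 1.0) and 0.61 ± 0.11 with it (adjusted p = 0.00274). This call was lost, at a log2 difference of 0.49, when the unstimulated LNA1 library 4 was left out.

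Without the block, 0 of 7 members were called between LNA1 and ctrlA (adjusted p below 0.05 and log2 difference above 0.5 in size), as against 0.442% of all genes, and 1 member had an unadjusted p below 0.05 (Saa3). With the block, 3 of 7 were called, all higher, while 2.08% of all genes were called higher. The members were chosen with earlier results of these data known, so this share is no independent test of the list. The paper had already named Lcn2, Saa3 and Hp as shifted in opposite directions by gain and loss of function of Gm15551. It interprets them as an artefact of the model system. Hp was higher in 6 of 6 pairs as well, at a log2 difference of 0.42 ± 0.08 (adjusted p = 0.00518 with the block), which is under the limit on size. In all, 4 of 7 members were higher in 6 of 6 pairs, and 7.91% of all genes were. The median log2 difference with the block was 0.42 over the 7 members and -0.02 over all genes. C3 (log2 0.03), Cfb (0.01) and Orm1 (0.00) had 4, 3 and 3 of 6 pairs higher.

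Which libraries were left out mattered for these calls. Without the block, leaving out 1 library gave log2 differences of 0.71 to 1.53 for Saa3 and 0.45 to 1.36 for Serpina3n. For Lcn2 the range was 0.34 to 0.84 and for Hp 0.17 to 0.67. Without the 6 libraries numbered 2, the model without the block called Saa3 (log2 1.44, adjusted p = 0.0251), Lcn2 (0.73, 0.0407) and Serpina3n (1.03, 0.00417). With the block, Hp joined them at 0.55 without the libraries numbered 2, and without the libraries numbered 4 only Serpina3n was called. How many of all genes these fits called is not given here, so their calls cannot be set against all genes. The macrophage sum was 8.57 to 13.0 CPM in unstimulated ctrlA and 12.0 to 15.9 CPM in unstimulated LNA1, and 12.8 to 25.1 CPM and 20.4 to 30.7 CPM in the stimulated groups. Adgre1 and Ptprc had 4 and 12 counts over all 18 libraries. The sum of 6 brown adipocyte markers was lower with LNA1, at 255 to 350.2 CPM against 338 to 426 CPM in unstimulated and 354 to 444 CPM against 495 to 547 CPM in stimulated ctrlA cells, and the stimulated groups did not overlap. Most of this sum was Elovl3 (189 to 409 CPM over all libraries) and Ppargc1a (41.9 to 92.0 CPM). It therefore says little about Ucp1, Cidea, Dio2 and Prdm16. The part of these sums in the LNA1 differences was not tested.

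**Figure D3:**
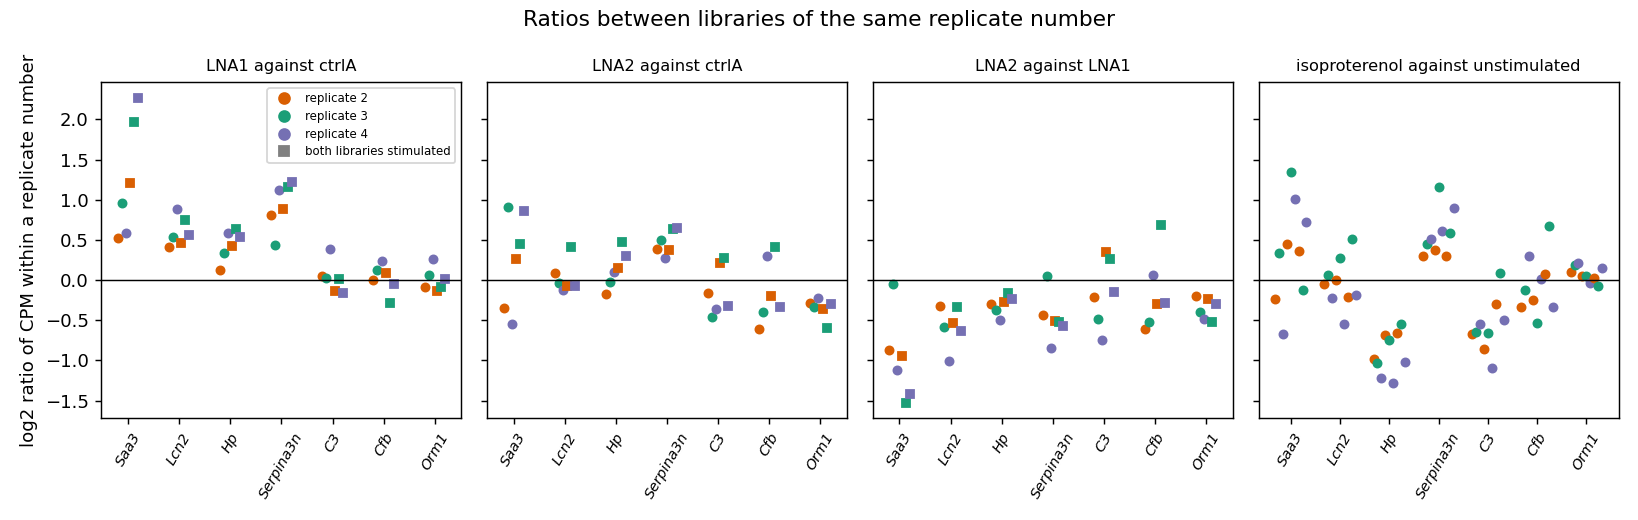
Log2 ratio of CPM between libraries of the same replicate number for each gene and comparison (colour: replicate number, squares: both libraries stimulated). For LNA1 against ctrlA, Saa3, Lcn2, Hp and Serpina3n lie above 0 in 6 of 6 pairs. For isoproterenol, Hp lies below 0 in 9 of 9 pairs and Serpina3n above 0 in 9 of 9 pairs.

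Separated by state, 1 of 7 members was called between LNA1 and ctrlA in unstimulated cells with the block (0.602% of all genes), which was Serpina3n with a log2 difference of 0.80 ± 0.14 (edgeR, adjusted p = 0.0133). In stimulated cells, 3 of 7 were called (1.45% of all genes). They were Saa3 (1.75 ± 0.26, adjusted p = 0.00216), Serpina3n (1.08 ± 0.14, 0.000695) and Hp (0.51 ± 0.12, 0.0372). For Saa3 the difference in unstimulated cells was 0.62 ± 0.26 (adjusted p = 0.34), but the test of the interaction gave a log2 value of 1.13 ± 0.36 with an adjusted p of 1.0 (0.00699 unadjusted). The interactions of LNA1 and of LNA2 with isoproterenol called 0 of 7 members and 0% of all genes, with and without the block. Without the block 0 members had an unadjusted p below 0.05 in either interaction, and with it 1 did in each, Saa3 for LNA1 and C3 for LNA2 (log2 0.39 ± 0.17).

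LNA2 targets another site of Gm15551, and none of the 7 members was called against ctrlA over both states. Serpina3n was higher in 6 of 6 pairs, by 1.21-fold to 1.57-fold, and Orm1 was lower in 6 of 6 pairs, at 0.660 to 0.854 of the control. Across all genes, 9.91% were higher and 12.1% lower in 6 of 6 pairs. Neither gene was called, since both differences were under the limit of 0.5 in size. Saa3, Lcn2, Hp, C3 and Cfb were higher with LNA2 in 4, 2, 4, 2 and 2 of 6 pairs.

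Serpina3n with LNA2 was at 56.0, 16.7 and 14.5 CPM in unstimulated libraries 2, 3 and 4 and at 68.8, 25.0 and 26.9 CPM in stimulated ones, which lies between ctrlA and LNA1 in 5 of 6 pairs. The log2 difference from ctrlA was 0.43 ± 0.53 without the block (edgeR, adjusted p = 0.94) and 0.46 ± 0.10 with it (adjusted p = 0.00407).

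Orm1 was at 281, 107 and 92.7 CPM in unstimulated ctrlA libraries 2, 3 and 4, at 265, 112 and 111 CPM with LNA1 and at 229.7, 85.4 and 79.2 CPM with LNA2. In stimulated cells it was at 301, 122 and 108 CPM with ctrlA, 274, 116 and 109 CPM with LNA1 and 234, 80.9 and 87.9 CPM with LNA2. Within each number the lowest of the 6 libraries was one given LNA2. The log2 difference between LNA2 and ctrlA was -0.34 ± 0.44 without the block (edgeR, adjusted p = 0.94) and -0.35 ± 0.05 with it (adjusted p = 0.00026). Without the block, this difference of Orm1 ranged from -0.68 to -0.00934 when 1 library was left out. Its paralogues Orm2 and Orm3 had a median of 16.6 and 19.1 CPM with ctrlA, 13.4 and 14.9 CPM with LNA1 and 13.3 and 16.1 CPM with LNA2.

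In counts, 0 of 7 members were called between LNA2 and ctrlA with or without the block, where 1.42% of all genes were called without and 5.53% with it, and 0 and 2 members had an unadjusted p below 0.05. In stimulated cells alone, 1 of 7 was called with the block (5.51% of all genes), namely Serpina3n at a log2 difference of 0.54 ± 0.14 (edgeR, adjusted p = 0.0174). In unstimulated cells Serpina3n was at 0.38 ± 0.14 and was not called (edgeR with the block, adjusted p = 0.16). Over both states and with the block, Serpina3n was called without the libraries numbered 2 (log2 0.54), and in the 3 fits without the unstimulated ctrlA library 2, the stimulated LNA2 library 2 or the unstimulated LNA2 library 4 (0.52 each). The macrophage sum was 14.5 to 29.0 CPM in unstimulated and 27.1 to 45.0 CPM in stimulated LNA2 cells, which in each state lies above the ctrlA values given for LNA1. The brown adipocyte sum was 262 to 377 CPM and 354 to 421 CPM. The part of these sums in the LNA2 differences was not tested.

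The 2 targeting LNAs were then compared with each other. Saa3 and Lcn2 were lower with LNA2 than with LNA1, in 6 of 6 pairs each, and so were Hp and Orm1 by smaller amounts. Across all genes 10.9% were lower in 6 of 6 pairs. Saa3 with LNA2 was at 3.39, 1.63 and 1.12 CPM in unstimulated libraries 2, 3 and 4 and at 4.37, 1.49 and 1.84 CPM in stimulated ones. Lcn2 was at 444, 154 and 183 CPM and at 384, 219.6 and 162 CPM. For both genes the range of the LNA2 libraries overlapped those of ctrlA and of LNA1.

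The log2 difference between LNA2 and LNA1 was -0.99 ± 0.18 for Saa3 (edgeR with the block, adjusted p = 0.00175) and -0.57 ± 0.11 for Lcn2 (adjusted p = 0.0024). These 2 were called, and 2.46% of all genes were called lower. Serpina3n (-0.48, adjusted p = 0.00341), Orm1 (-0.35, 0.000399) and Hp (-0.30, 0.0203) passed the limit on p and not that on size. Without the block 0 of 7 were called (0.923% of all genes), 0 had an unadjusted p below 0.05, and the adjusted p of Saa3 was 0.59 and that of Lcn2 0.84. Both calls were lost without the libraries numbered 4, and that of Lcn2 also without the unstimulated LNA1 library 4 (-0.45) or the stimulated LNA2 library 4 (0.50 in size, just under the limit). Serpina3n was called here in 6 of 18 fits that left out 1 library (-0.50 to -0.56). The comparisons of LNA1 and LNA2 with ctrlA share the ctrlA libraries, and all 3 comparisons share libraries in pairs.

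Isoproterenol was the second factor of the study. Hp and C3 were lower after stimulation, to 0.54 and 0.67 of the unstimulated level in the blocked model, and Serpina3n was 1.46-fold higher. Saa3, Lcn2, Cfb and Orm1 were not called. These values average the 3 LNAs, 9 libraries against 9.

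Hp was at 43.3, 21.6 and 18.8 CPM in unstimulated ctrlA libraries 2, 3 and 4 and at 21.96, 10.6 and 8.07 CPM after isoproterenol. With LNA1 it was at 47.1, 27.4 and 28.3 CPM before and at 29.4, 16.4 and 11.7 CPM after, and with LNA2 at 38.4, 21.3 and 20.0 CPM before and at 24.3, 14.6 and 9.92 CPM after. All 9 stimulated libraries were below their unstimulated counterpart, at 0.413 to 0.688 of it, and the stimulated ctrlA library was the lowest of the 6 for each number. The log2 difference was -0.86 ± 0.27 without the block (edgeR, adjusted p = 0.0943, unadjusted 0.00626) and -0.89 ± 0.07 with it (adjusted p = 7.65e-08). Without the block Hp was called by DESeq2 (adjusted p = 0.0339), by edgeR without a filter (0.0394), without the stimulated ctrlA library 2 (0.0354) and without all libraries numbered 2 (0.00044).

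C3 was at 138, 395 and 318 CPM in unstimulated ctrlA libraries 2, 3 and 4 and at 86.6, 253 and 218 CPM after isoproterenol. With LNA1 it went from 143, 402 and 415 CPM to 79.1, 254 and 194 CPM, and with LNA2 from 124, 287 and 247 CPM to 101, 305 and 175 CPM. It was lower in 8 of 9 pairs, the exception being library 3 of LNA2. The log2 difference was -0.55 ± 0.33 without the block (edgeR, adjusted p = 0.52) and -0.57 ± 0.07 with it (adjusted p = 1.42e-05). Without the block, C3 was called when all libraries numbered 2 were left out (-0.55, edgeR, adjusted p = 0.0193).

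Serpina3n was higher in each of the 9 pairs of the values given above, by 1.23-fold to 2.23-fold. The log2 difference was 0.47 ± 0.43 without the block (edgeR, adjusted p = 0.76) and 0.55 ± 0.08 with it (adjusted p = 8.23e-05). It was close to the limit on size, since it was 0.49 and no longer called when the unstimulated LNA1 library 3 was left out, and also not called without all libraries numbered 3. Without the block, Serpina3n was called when all libraries numbered 2 were left out (0.68, edgeR, adjusted p = 0.00234).

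Without the block, 0 of 7 members were called for isoproterenol (3.2% of all genes), and 1 had an unadjusted p below 0.05 (Hp). With the block 1 was called higher and 2 lower, where 3.87% of all genes were called higher and 3.13% lower. Being higher in 9 of 9 pairs held for 1 member and for 8.4% of all genes, and being lower in 9 of 9 pairs for 1 member and for 6.91%. The median log2 difference with the block was -0.04 over the 7 members and 0.00 over all genes. By LNA, with the block, 2 of 7 members were called in ctrlA (4.03% of all genes), 4 in LNA1 (5.04%) and 2 in LNA2 (4.25%). Hp was called with each LNA, at log2 -1.05 ± 0.12 in ctrlA, -0.88 ± 0.11 in LNA1 and -0.73 ± 0.12 in LNA2 (edgeR, adjusted p = 2.92e-05, 9.04e-05 and 0.000901). C3 was called in ctrlA (-0.62 ± 0.12, adjusted p = 0.00374) and in LNA1 (-0.88 ± 0.12, 0.000167), and was at -0.22 ± 0.12 in LNA2 (0.27). Serpina3n was called in LNA1 (0.68 ± 0.13, 0.00333) and LNA2 (0.57 ± 0.14, 0.0172), and was at 0.40 ± 0.14 in ctrlA (0.11). Saa3 was called in LNA1 alone (0.91 ± 0.24, 0.0248), but was at -0.22 ± 0.27 in ctrlA and 0.31 ± 0.27 in LNA2, and as given above the interactions were not called.

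Marker sums moved with isoproterenol too. The macrophage sum was 8.57 to 29.0 CPM in the unstimulated and 12.8 to 45.0 CPM in the stimulated groups. The summed level of 6 preadipocyte markers, of which 5 were detected, was 16.5 to 41.5 CPM before and 26.4 to 75.7 CPM after. Its largest members were Ly6a (5.68 to 63.3 CPM) and Pdgfra (6.74 to 16.4 CPM). The sum of the 6 adipocyte markers was 16542 to 27982 CPM before and 13406 to 21526 CPM after. Fabp4 (7081 to 20719 CPM) and Lpl (3358 to 4969 CPM) were its largest members. The brown adipocyte sum, of which Elovl3 was the largest member, was higher after isoproterenol without overlap in ctrlA (338 to 426 CPM before, 495 to 547 CPM after) and LNA1 (255 to 350.2 CPM, then 354 to 444 CPM), and overlapped in LNA2 (262 to 377 CPM, then 354 to 421 CPM). In such bulk samples, fewer cells of a type and less RNA per cell cannot be told apart, and the part of these sums in the differences of Hp, C3 and Serpina3n was not tested.

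**Figure D4:**
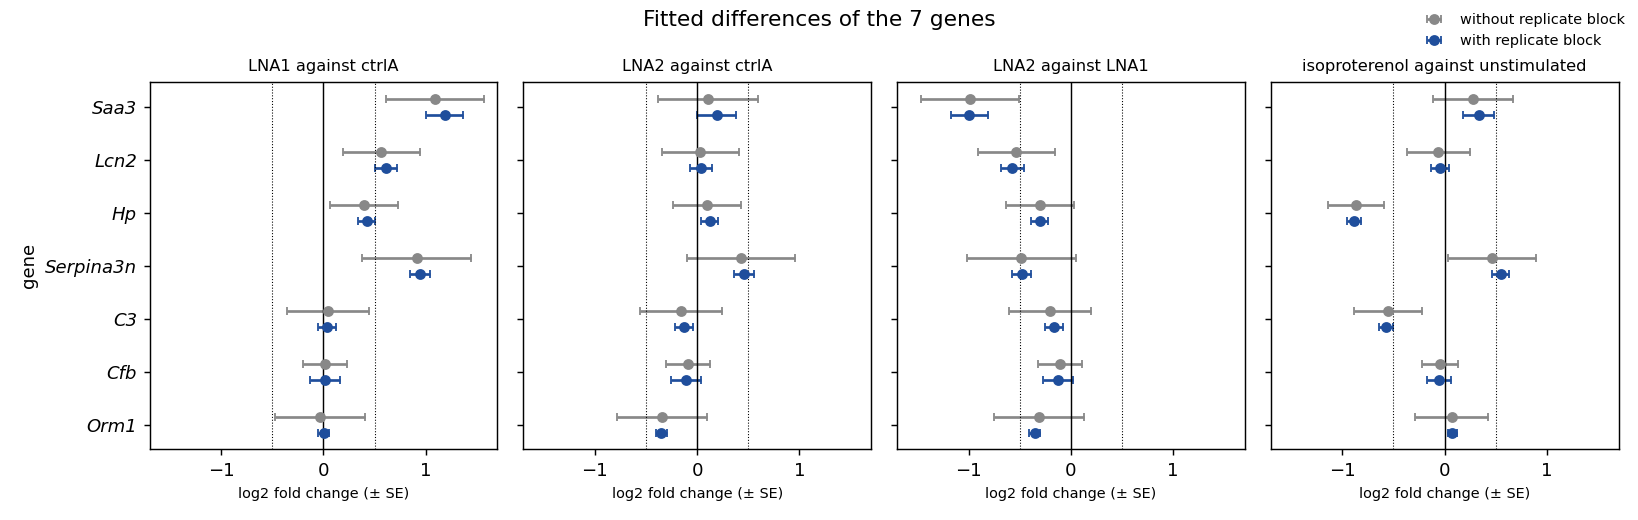
Fitted log2 fold change ± SE of each gene in the 4 comparisons, without (grey) and with (blue) the replicate number as a block. Dotted lines mark the limit of 0.5 in size. The estimates of both models lie close together, while the standard errors are smaller with the block, for example 0.10 against 0.53 for Serpina3n with LNA1.

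Cfb was not called in the LNA or isoproterenol comparisons. It was at 4.42, 5.70 and 4.49 CPM in unstimulated ctrlA libraries 2, 3 and 4, at 4.41, 6.21 and 5.29 CPM with LNA1 and at 2.89, 4.32 and 5.53 CPM with LNA2. After isoproterenol the values were 3.50, 5.21 and 5.51 CPM with ctrlA, 3.73, 4.29 and 5.32 CPM with LNA1 and 3.04, 6.92 and 4.38 CPM with LNA2. No group was the highest for more than 1 of the 3 numbers. With the block, the 95% intervals of the log2 difference were -0.27 to 0.30 for LNA1, -0.39 to 0.17 for LNA2 and -0.29 to 0.18 for isoproterenol.

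Promoters were searched for the letters of known regulators. RefSeq sequences of build GRCm38.p6, from 250 bases before to 50 bases after the start site, were matched for 4 of the 7 genes by symbol and are shown for these, namely the 3 that were higher with LNA1 and C3. Positions count from the start site, and capitals mark the motifs found.

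Saa3, chr7:46715627-46715926, minus strand: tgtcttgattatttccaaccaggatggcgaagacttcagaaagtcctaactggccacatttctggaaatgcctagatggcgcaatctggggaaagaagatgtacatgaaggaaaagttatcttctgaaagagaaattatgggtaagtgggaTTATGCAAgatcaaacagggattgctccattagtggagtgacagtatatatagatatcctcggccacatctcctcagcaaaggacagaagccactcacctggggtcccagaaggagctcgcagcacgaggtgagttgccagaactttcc

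Serpina3n, chr12:104406458-104406757, plus strand: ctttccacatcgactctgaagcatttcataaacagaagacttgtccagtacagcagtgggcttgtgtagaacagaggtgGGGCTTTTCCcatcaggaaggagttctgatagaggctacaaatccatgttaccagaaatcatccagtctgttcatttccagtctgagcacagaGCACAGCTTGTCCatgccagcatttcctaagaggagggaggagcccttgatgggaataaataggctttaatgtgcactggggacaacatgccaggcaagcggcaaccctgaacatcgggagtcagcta

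Lcn2, chr2:32387690-32387989, minus strand: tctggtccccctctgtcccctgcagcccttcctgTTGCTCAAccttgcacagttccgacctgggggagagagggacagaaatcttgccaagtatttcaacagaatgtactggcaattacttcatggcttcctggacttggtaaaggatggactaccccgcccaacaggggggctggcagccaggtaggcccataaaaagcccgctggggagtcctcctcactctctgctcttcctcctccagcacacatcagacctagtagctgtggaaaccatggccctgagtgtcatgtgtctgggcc

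C3, chr17:57228087-57228386, minus strand: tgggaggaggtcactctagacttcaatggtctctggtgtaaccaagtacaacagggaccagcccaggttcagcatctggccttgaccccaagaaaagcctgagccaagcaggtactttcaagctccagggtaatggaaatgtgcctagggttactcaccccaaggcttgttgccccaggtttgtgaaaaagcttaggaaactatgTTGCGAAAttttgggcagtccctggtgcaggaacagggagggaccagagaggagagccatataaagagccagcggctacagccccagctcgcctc

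A match to the C/EBP letters TTGCNNAA on either strand was found in Lcn2 (at -216), Saa3 (at -99, on the reverse strand) and C3 (at -45), and in 10.8% of 32851 promoters of this length. Serpina3n held a match to an NF-κB motif at -171, found in 4.79% of promoters, which also met a stricter form of it (1.63%), and a match to the glucocorticoid receptor palindrome at -78, found in 0.475%. Both strands were searched for each motif, and the marked motifs did not overlap. The letters TTCNNNGAA of STAT factors (8.3% of promoters), TGACGTCA (1.79%) and TGACG (20.8%), the latter contained in the former and both known from cAMP response elements, were in none of the 4 windows. Saa3, Lcn2 and Serpina3n, which were higher with LNA1, thus had no motif in common that was in all 3 windows. A match of letters is a description of the sequence and not of binding.

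The gene bodies lie on chromosomes 7 (Saa3, chr7:46711998-46715700), 2 (Lcn2, chr2:32384633-32388252), 8 (Hp, chr8:109575128-109579172), 12 (Serpina3n, chr12:104406729-104414329), 4 (Orm1, chr4:63344560-63348163) and 17 (C3, chr17:57203970-57228136, and Cfb, chr17:34856374-34862518), in build GRCm38. Values are for whole genes with all exons, and exons of the 7 genes overlapped no exon on the opposite strand.

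Other genes of the same systems were counted to place the members. Of 38 further acute-phase genes 18 were tested. For isoproterenol, for which 3.2% of all genes were called without the block, 2 rose and 2 fell without the block, namely Cd14, a co-receptor for lipopolysaccharide (log2 1.28), Ptx3, a long pentraxin (0.64), Cp, the copper oxidase ceruloplasmin (-1.57), and Serpina3c (-1.46), with edgeR adjusted p of 0.00398, 0.00543, 0.000760 and 0.00432. With the block 5 rose and 5 fell, where 3.87% of all genes were called higher and 3.13% lower, among them Fgl1 (log2 1.24), Steap4 (-0.77) and the interleukin 1 receptor antagonist Il1rn (-0.67). The list thus moved in both directions, with a median of 0.07 without and 0.09 with the block. With LNA1, 0 of 18 were called without the block and 2 rose with it (2.08% of all genes), the fibrinogen chain Fga (1.28) and Serpina3k (0.76). With LNA2, 0 were called without the block, and with it 3 rose and 4 fell (3.77% and 1.75% of all genes), among them Fga (1.11), Itih4 (0.80), Itih2 (-0.72), Cp (-0.66), Cd14 (0.57) and Lbp (-0.54).

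Of 26 other complement components 12 were tested. Cfd, the protease that activates factor B, was the only one called without the block for isoproterenol (1 of 12, against 3.2% of all genes). It was at a mean of 197 CPM in unstimulated and 112 CPM in stimulated libraries, a log2 difference of -0.83 ± 0.19 (edgeR, adjusted p = 0.0194), and the block added C1s1 (-0.84), where 3.13% of all genes were called lower. C3 and Cfd were thus lower together with the block, and Cfb was not called. The C1q genes C1qa, C1qb and C1qc had 13, 10 and 16 counts over all libraries. Of 11 regulators 7 were tested, and Cfi, which cleaves the active form of C3 (-0.82, adjusted p = 0.0154), and Clu, an inhibitor of the lytic complex (-0.68, 0.0368), were lower after isoproterenol in both models, at a mean of 1.25 and 2.52 CPM. With the block, 1 of 12 components was higher with LNA1 than with ctrlA (2.08% of all genes) and 1 lower with LNA2 than with LNA1 (2.46%), in both cases C4a (log2 1.44 and -1.20). C4a was at a mean of 2.99 CPM, and its paralogue C4b, at 15.3 CPM, was not called in the LNA comparisons. How reads were divided between C4a and C4b was not tested. Between LNA2 and ctrlA, 1 of 12 components rose and 1 fell with the block, where 3.77% of all genes were called higher and 1.75% lower. The one that rose was the collectin Colec11 (1.32, at a mean of 0.443 CPM, named after its values were seen) and the one that fell the scavenger receptor Colec12 (-0.50). Between LNA2 and LNA1, 1 of 7 regulators fell with the block (2.46% of all genes). Without the block 0 components and 0 regulators were called in the LNA comparisons.

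Of 16 receptors and partners of the members 7 were tested. Scarb1, a lipoprotein receptor that also binds serum amyloid A, fell with isoproterenol (log2 -0.73, edgeR without the block, adjusted p = 0.0496, close to the limit). It was the only one called for isoproterenol, with or without the block. Of all genes, 3.2% were called without the block and 3.13% were called lower with it. In the LNA comparisons 0 were called without the block. With it, 0 were called with LNA1, 1 rose with LNA2 against ctrlA (3.77% of all genes) and 2 rose with LNA2 against LNA1 (1.65%). These were the integrin subunit Itgb2, with 216 counts in all (log2 1.42 against ctrlA and 1.16 against LNA1, named after its values were seen), and P2rx7 (0.76 against LNA1). Among the receptors for fragments of C3 and C5, C3ar1 had 23 counts over all libraries, C5ar1 had 8 and Cr2 had 21, while C5ar2, with 129 counts (0.170 to 1.33 CPM), passed the filter. The haemoglobin-haptoglobin receptor Cd163 had 23 counts. Of 23 upstream signals 20 were tested. Without the block 0 were called in the 4 comparisons. With it, 4 rose with isoproterenol (3.87% of all genes) and 0 were called with the LNAs. The 4 were Il6 (log2 1.48, from a mean of 0.839 to 2.35 CPM), the oncostatin M receptor Osmr (0.68), Cebpb (0.62) and Cebpd (0.56). Il1b and Tnf had 1 and 2 counts in all.

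Finally, the members were compared with each other and with all genes of at least 10 CPM on average by Pearson's r of log2 CPM over the 18 libraries, after removal of the mean of each replicate number. These values are a description, since the libraries share groups and treatments. Saa3 and Serpina3n (r = 0.84), Hp and C3 (0.84), Saa3 and Lcn2 (0.70) and Lcn2 and Serpina3n (0.60) were most alike, and Serpina3n and C3 were opposed (-0.43). Without removal of the replicate mean, Serpina3n and C3 were at -0.85 and Saa3 and Hp at 0.52 instead of 0.08. Among 9257 genes, the most alike was Isyna1 for Saa3 (0.87), Ivd for Lcn2 (0.89), Arel1 for Serpina3n (0.96), Arsb for C3 (0.96), Ect2 for Orm1 (0.94) and Cdk5rap1 for Cfb (0.71). For Hp the nearest were Abcd2 (0.94), Rarres2, which encodes the adipokine chemerin (0.94), and the adipocyte glycerol channel Aqp7 (0.93). The next after Arel1 for Serpina3n were the zinc transporter Slc39a14 (0.93) and Slc25a12 (0.89). For Saa3 the next were Cdk18 (0.84) and Gm47486 (0.83), and for Lcn2 Tspan3 (0.87) and Chd2 (0.87). For C3 they were Sh3pxd2a (0.95) and Arhgap1 (0.95), for Orm1 Snrpd1 (0.93) and Pls3 (0.93), and for Cfb Taz (0.68) and Ankrd9 (0.67).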

How the data were processed

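PolyA RNA of 18 libraries of wt1-SAM cells was sequenced as paired ends. Per the submitters' notes and methods, the authors filtered reads by quality (cutadapt) and assigned them to Gencode M22 transcripts of GRCm38 (salmon). Versions, strand use and the summing of transcripts to genes were not given in the sources used here. The deposited values were expected counts (estimated counts per gene), already whole numbers (0 values were not). salmon divides shared fragments by probability, so genes with paralogues carry uncertain counts. Nothing says that replicates came from separate cultures, so p-values may measure technical spread.

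Counts were analysed in R 4.3.3 with edgeR 4.0.16 (filterByExpr, minimum count 10, minimum total 15; TMM; glmQLFit with 1 term per group; glmQLFTest, two-sided). CPM are TMM-scaled. LNA contrasts were averaged over stimulation, and that of isoproterenol over LNAs. Genes were called at a Benjamini-Hochberg adjusted p below 0.05 over all 14949 genes and an absolute log2 difference above 0.5, the joint test at 0.001, and interactions at 0.05. Standard errors come from the F statistic, and 95% intervals use 1.96 of them. Alternatives were DESeq2 1.42.0, other size factors, no filter, removal of ribosomal RNA and mitochondrial genes, left-out libraries and the replicate number as a block. Whether numbers pair libraries was checked on deviations from group means. All 45 same-number pairs had r of 0.24 to 0.72 (90 other pairs: -0.60 to 0.40), so blocked values stand beside the results. Within groups, 18 pairs of libraries differed beyond sampling noise (chi-square per degree of freedom 4.32 to 177). The scripts were tested on simulated data.

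All 7 members are named with their values. From the further lists, at most 6 called genes of at least 1 CPM per comparison are named, largest first, except 1 that is not reported here. Itgb2 and Colec11 (below 1 CPM), genes singled out for low counts, Cfd and its neighbours were described after their values were seen. Members and lists were chosen with earlier results of these data known. Coordinates (counted from 1) and exons come from GENCODE M21 for GRCm38, promoters from RefSeq (GRCm38.p6), and the LNA sequences from the study's oligo list.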

Additional observations from a re-analysis of the deposited data

How the results depend on the processing

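The replicate block changed most calls. The joint test called 0 members without it, 5 with it and 6 in DESeq2 with it. For LNA1, 0 became 3 in either tool, and for LNA2 against LNA1 0 became 2 in either tool. For isoproterenol 0 became 3 in edgeR, and 1 (Hp) became 3 in DESeq2. Without the block, edgeR without a filter also called 1 (Hp). LNA2 against ctrlA and the interactions stayed at 0 with the block. When libraries were left out without the block, the counts ranged from 0 to 3 for LNA1, 0 to 1 for LNA2, 0 to 2 for LNA2 against LNA1 and 0 to 3 for isoproterenol. With the replicate block they ranged from 0 to 6 in the joint test, 1 to 4 for LNA1, 0 to 1 for LNA2, 0 to 3 for LNA2 against LNA1 and 2 to 3 for isoproterenol, the 0 of the joint test being without all libraries numbered 2 and those of LNA2 against LNA1 without all numbered 4. The cause was not tested. For the fits in DESeq2, without a filter or with libraries left out, shares of all genes called are not given. Their counts of members therefore cannot be set against all genes. Some log2 differences below 0.5 in size changed sign. For LNA1 these were Cfb without a filter (-0.0164, with the replicate block -0.0196) and Orm1 (-0.04) with the replicate block (0.00196, there -0.0317 without a filter and -0.000995 without ribosomal RNA and mitochondrial genes). With libraries left out and no block, LNA1 ranged from -0.14 to 0.24 for C3, -0.0599 to 0.0839 for Cfb and -0.32 to 0.30 for Orm1. LNA2 ranged from -0.19 to 0.55 for Saa3, -0.28 to 0.31 for Lcn2, -0.11 to 0.36 for Hp, -0.0118 to 0.87 for Serpina3n, -0.40 to 0.0149 for C3 and -0.27 to 0.0448 for Cfb. LNA2 against LNA1 ranged from -0.28 to 0.0205 for Cfb, and isoproterenol from -0.00654 to 0.58 for Saa3, -0.24 to 0.15 for Lcn2, -0.16 to 0.0387 for Cfb and -0.14 to 0.30 for Orm1. With the replicate block and libraries left out, LNA1 ranged from -0.0436 to 0.0929 for C3, -0.0550 to 0.10 for Cfb and -0.0601 to 0.0854 for Orm1, LNA2 from -0.0652 to 0.11 for Lcn2 and -0.26 to 0.0418 for Cfb, LNA2 against LNA1 from -0.26 to 0.00528 for Cfb, and isoproterenol from -0.20 to 0.10 for Lcn2 and -0.15 to 0.0160 for Cfb. With the block, Saa3 (LNA1, LNA2 against LNA1), Serpina3n (LNA1), Hp and C3 (isoproterenol) were called in 18 of 18 fits that left out 1 library. Depth limits Saa3 and Cfb most, and Gm15551 could not be assessed.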
